A study of Arabidopsis thaliana with 10 samples.

Results

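Acetylation of histone H3 at lysine 27 (H3K27ac) was compared between the inflorescence meristem before floral induction (stage 0, S0) and young floral meristems at 2 days after induction (stage 2, S2), gene by gene. A gene entered the comparison if a peak of either stage had its summit nearest to the TSS of that gene. This was the case for 11533 of the 27444 protein-coding genes, and 12244 genes had a peak in at least 1 of the 4 lists of the series. A peak was called at both stages for 7682 genes (66.6%), at S0 only for 3150 genes (27.3%) and at S2 only for 701 genes (6.08%). Genes with a peak at both stages were compared by percentile, the share of peaks in a list whose fold enrichment over input is no higher than that of the gene's strongest peak.

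All plants carried the pAP1::AP1-GR transgene in the *ap1 cal* double mutant of the Ler background. In this line the MADS-domain factor AP1, fused to the glucocorticoid receptor and driven by its own promoter, enters the nucleus when dexamethasone is applied, and the meristems that pile up in the mutant then begin to form flowers together. S0 tissue was untreated, not mock-treated, and S2 tissue after daily treatment with 2 µM dexamethasone, and inflorescences of both were harvested. Fewer cells of a type and less acetylation per cell cannot be told apart in such tissue. The treatment, the added 2 days of age and the onset of flower formation cannot be told apart between these stages. There were 2 replicates per stage, but each peak list was called on the pooled replicates with the 2 input libraries combined into 1 control for all stages, so no value carries a replicate error and no test of a difference was possible.

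H3K27ac is laid down by histone acetyltransferases and removed by deacetylases, and in plants it sits mostly just downstream of the TSS of transcribed genes. Floral induction replaces a programme of flowering-time regulators, which hold the shoot apex as an inflorescence meristem, with the floral meristem identity genes *LFY* and *AP1*. A locus without a called peak can still be acetylated below the threshold of the peak caller.

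Sequence at the summit is shown for the genes on which the account of the flowering genes turns. Windows are 101 bp of TAIR10 centred on the summit, 5′ to 3′ on the strand of the gene, with coding bases in capitals and other bases in lower case. The first is *LFY*, which had a peak at S2 and none at S0, on the plus strand at chr5:24844469-24844569.
LFY, S2: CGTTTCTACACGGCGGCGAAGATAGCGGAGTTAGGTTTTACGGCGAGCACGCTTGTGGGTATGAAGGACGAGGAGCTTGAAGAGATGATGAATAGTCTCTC
*SPL9* (plus strand, chr2:17587692-17587792) and *SPL5* (minus strand, chr3:5140920-5141020) had a peak at S0 and none at S2. The *SPL5* window ends in the intron that follows its exon 1.
SPL9, S0: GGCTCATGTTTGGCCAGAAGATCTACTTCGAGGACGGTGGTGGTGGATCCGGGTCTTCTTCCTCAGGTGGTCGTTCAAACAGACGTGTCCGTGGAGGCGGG
SPL5, S0: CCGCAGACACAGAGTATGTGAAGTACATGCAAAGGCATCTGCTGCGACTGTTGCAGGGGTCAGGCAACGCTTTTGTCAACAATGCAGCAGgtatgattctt
The related MADS genes *AGL24* (minus strand, chr4:12673490-12673590) and *SVP* (plus strand, chr2:9580452-9580552) are shown together because both summits lie in exon 2, which encodes the MADS domain, while *AGL24* had a peak at S0 only and *SVP* ranked higher at S2.
AGL24, S0: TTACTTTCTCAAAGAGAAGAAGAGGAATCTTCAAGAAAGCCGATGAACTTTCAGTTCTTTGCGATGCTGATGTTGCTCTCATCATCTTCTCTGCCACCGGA
SVP, S2: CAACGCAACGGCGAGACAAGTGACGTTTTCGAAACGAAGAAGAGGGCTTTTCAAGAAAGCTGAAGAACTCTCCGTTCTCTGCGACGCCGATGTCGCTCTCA
The summit of *FD* (plus strand, chr4:17005476-17005576) lies in intron 1, and *FD* ranked lower at S2.
FD, S0: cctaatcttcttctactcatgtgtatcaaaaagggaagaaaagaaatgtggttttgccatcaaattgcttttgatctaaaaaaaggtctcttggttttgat

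The S0 list is longer than the S2 list, and this length bears on every count of genes at a single stage. It holds 11583 peaks against 8608 at S2, and the lists of 4 and 8 days after induction (S4 and S8) hold 9114 and 9235. These lists do not hold the number of reads. When the S0 list was shortened to its 8608 peaks with the highest −log10 p, 1655 genes had a peak at S0 only and 1717 at S2 only, which are 16.5% and 17.1% of the genes with a peak at either stage. Lists of equal length cover similar numbers of genes, so these counts were bound to lie close together. Their closeness says nothing about the excess of genes at S0 only between the full lists. Where both lists were held to a −log10 q of at least 20, 4279 genes had a peak at S0 only and 322 at S2 only. In both directions the genes missing from the other list were mostly those with weak peaks. When the genes of the S0 list were divided by percentile into 5 groups of equal size, 58.0% had no peak at S2 in the lowest group, and this share was 42.5%, 25.8%, 14.4% and 4.80% in the groups above it. For S2 genes without a peak at S0 the shares ran from 17.1% in the lowest group to 1.43% in the highest. The median percentile was 28.9 for genes at S0 only and 25.7 for genes at S2 only, against 63.1 at S0 and 53.3 at S2 for genes with a peak at both.

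**Figure D1:**
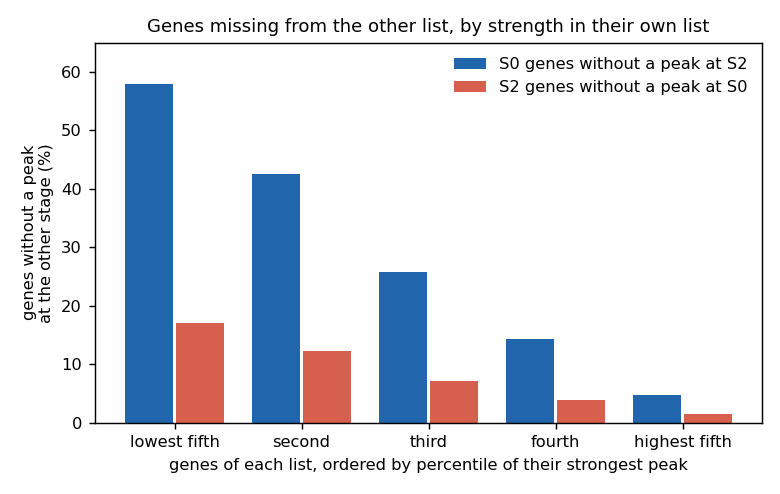
Share of genes without a peak at the other stage (y axis, %), for the genes of the S0 list (blue) and of the S2 list (red) in 5 groups of equal size by the percentile of their strongest peak (x axis). The share goes from 58.0% to 4.80% for S0 genes and from 17.1% to 1.43% for S2 genes, so the genes at a single stage lie mostly among the weaker peaks of their own list.

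Some peaks of genes at a single stage overlapped a peak of the other stage that was given to a different gene. Of the genes with a peak at S2 only, 183 (26.1%) had an S2 peak that overlapped an S0 peak by at least 1 bp, as did 93 (2.95%) of the genes with a peak at S0 only. Without these, 3057 genes had a peak at S0 only and 518 at S2 only. The receptor kinase gene *BAM2* is such a case. Its S0 peak at the 92.2 percentile overlapped an S2 peak at the 93.3 percentile (chr3:18417757-18420945), whose summit was nearest to the TSS of *BCAT3*. With peaks placed by their midpoint, *BAM2* had a peak at both stages.

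For genes with a peak at both stages, the percentile was higher at S2 by 20 points or more in 1023 genes (13.3%) and lower by 20 points or more in 2245 genes (29.2%). The median difference, S2 minus S0, was −5.06 points, with quartiles of −23.5 and 7.57. This lean toward lower values was seen within the full lists, which also rank the peaks of genes at a single stage. Percentiles among the shared genes alone rank the same genes at each stage, so rises and falls offset each other by construction. So ranked, the median difference was 0.143 points, and 20.5% of genes were higher and 20.6% lower by 20 points. This balance therefore says nothing about the lean. The order of the shared genes was partly kept, with a Spearman correlation of 0.583 between the percentiles of the stages over the 7682 genes, which share the input control.

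**Figure D2:**
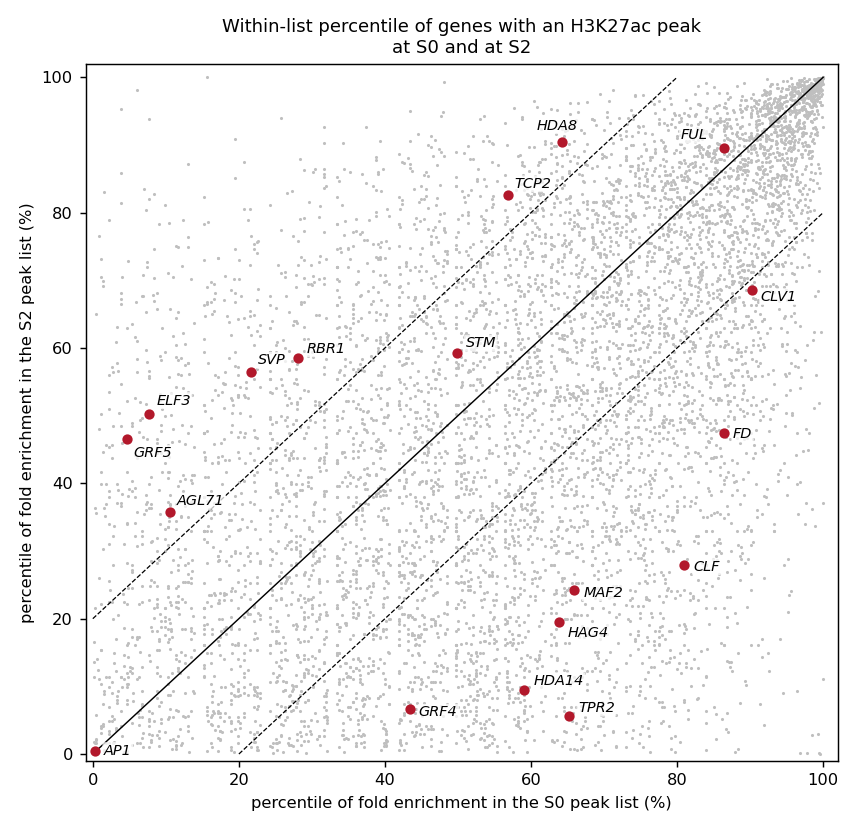
Percentile of the strongest H3K27ac peak in the S0 list (x axis, %) and in the S2 list (y axis, %) for the 7682 genes with a peak at both stages (grey) and for 18 genes of the fixed lists (red). The solid line marks equal percentiles and the dashed lines a difference of 20 points, with *SVP*, *ELF3* and *GRF5* above the upper line and *FD*, *CLF* and *TPR2* below the lower one.

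The peaks of the shared genes kept their place. The summit at S2 lay within 100 bp of the summit at S0 in 61.6% of them, with a median distance of 72 bp, and it was over 500 bp away in 254 genes (3.31%). Peaks were narrower at S2 in most genes. The median width was 830 bp at S0 and 729 bp at S2, and 32.4% of genes had a wider peak at S2. Genes at a single stage had narrower peaks, with medians of 600 bp at S0 only and 567 bp at S2 only. Across these genes, the Spearman correlation of the difference in width with the difference in percentile was 0.053. More than 1 peak was called for 526 of the shared genes at S0 and for 202 at S2.

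Gene lists for floral and meristem functions were fixed by symbol, 269 genes in 27 lists. A peak at S0 or S2 was called for 141 of these genes, of which 94 had one at both stages, 40 (28.4%) at S0 only and 7 (4.96%) at S2 only, near the 27.3% and 6.08% of all genes. With lists of equal length, 16 of the 40 genes still had a peak at S0 only and 24 had none. Over all genes, 1655 of the 3150 genes at S0 only stayed so. The 7 genes at S2 only stayed so by construction, because only the S0 list was shortened. Among them, only *RING1A* kept a peak at a −log10 q of at least 20. Of the 94 genes at both, 80 stayed at both and 14 had a peak at S2 only, among them *AP1*, *AGL71*, *GRF5*, *ELF3* and *RBR1*. Over all genes, 6666 of the 7682 stayed at both. The lists for other organs (10 regulators of root, seed and pollen such as *PLT1*, *LEC1* and *AMS*) held no gene with a peak. No peak at S0 or S2 was called for any of the 6 *YABBY* genes of lateral organs or of the 5 floral zinc finger genes such as *JAG* and *SUP*.

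**Figure D3:**
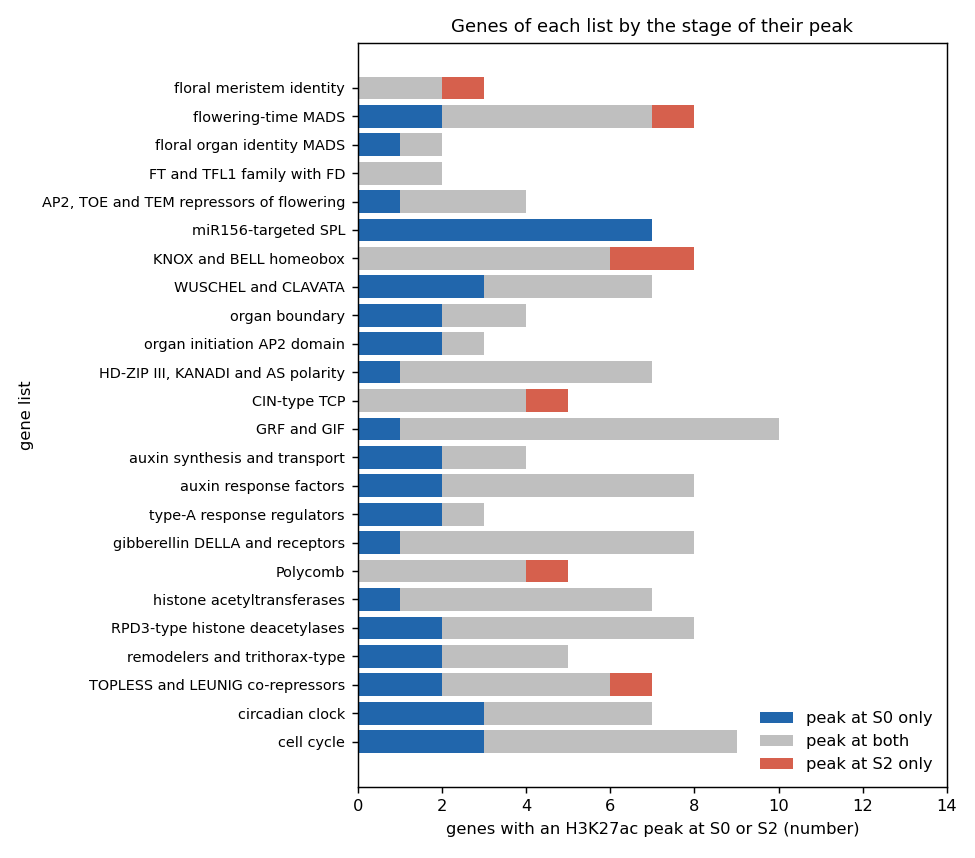
Number of genes with an H3K27ac peak at S0 or S2 (x axis) in each fixed list with at least 1 such gene (y axis), divided into genes with a peak at S0 only (blue), at both (grey) and at S2 only (red). All 7 marked genes among the miR156 targets of the *SPL* family were at S0 only.

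Among the floral meristem identity genes, *LFY* had a peak at S2 and none at S0. *LFY* encodes the plant-specific factor that switches on *AP1* and the floral organ identity genes. Its peak (chr5:24844266-24844762) was 497 bp wide with a fold enrichment of 2.54, and its summit lay 271 bp from the TSS within coding exon 1. It ranked at the 9.91 percentile at S2 and the 8.46 percentile at S4, and no peak was called at S8. The *LFY* peak was thus among the weaker ones at both stages at which it was called, and it was lost when peaks were held to a −log10 q of at least 20. *AP1* had a peak at both stages, at the 0.276 percentile at S0 and the 0.453 percentile at S2, with a peak 745 bp wide at S0 and 1771 bp wide at S2. The S0 peak of *AP1* was weak enough to drop out with lists of equal length, and ranked by −log10 p the difference at *AP1* was 13 points. Reads of the endogenous gene and of the transgene are not separated at *AP1*. The *AP1* relative *FUL*, which acts in meristem identity and fruit development, stood at the 86.4 percentile at S0 and the 89.5 percentile at S2, where a single peak of 1360 bp stood in place of 3 peaks, the strongest 735 bp wide. No peak was called at *CAL*, *AGL79* or *UFO* at either stage.

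The flowering-time MADS genes differed among themselves. *SOC1* and *AGL24*, which promote flowering in the inflorescence meristem, had a peak at S0 only, at the 33.5 and 30.5 percentiles, and none at any later stage. With lists of equal length *AGL24* still had its S0 peak and *SOC1* had none. *SVP*, a floral repressor that also acts in early floral meristems, stood at the 21.6 percentile at S0 and the 56.5 percentile at S2, with fold enrichments of 2.65 and 3.18. Its peak was absent at S4 and S8. *AGL71*, a relative of *SOC1*, likewise stood higher at S2, at 35.7 against 10.5. *AGL42*, of the same clade, was near the top of both lists at 94.3 and 95.4. Of the repressors of the *FLC* clade, *MAF2* was at 65.9 at S0 and 24.3 at S2, and *MAF3* had a weak peak at S2 only, at 14.6. *FLM* was at 57.7 and 38.3, a difference of −19.4 points that was −4.74 with lists of equal length. *FLC* itself had no peak. In all, 8 of the 14 genes in this list had a peak at S0 or S2, of which 2 were higher and 1 lower by 20 points (13.3% and 29.2% of all shared genes). At a −log10 q of at least 20, *SVP* had a peak at S2 only, and *MAF2* and *FD* at S0 only.

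The miR156-targeted *SPL* genes that had a peak at S0 had none at S2. These factors promote the floral transition and are held back in young plants by the microRNA miR156. Of the 11 genes, 7 had a peak at S0 and none of the 7 had one at S2 or S4, whereas 6 had one again at S8. The S0 percentiles were 7.30 for *SPL3*, 35.2 for *SPL4*, 65.2 for *SPL5*, 42.4 for *SPL9*, 19.9 for *SPL6*, 41.9 for *SPL13A* and 49.8 for *SPL13B*. The S8 percentiles were 26.4 for *SPL3*, 47.3 for *SPL4*, 26.1 for *SPL5*, 28.5 for *SPL9*, 13.6 for *SPL13A* and 27.9 for *SPL13B*. Over all genes with a peak at S0, 29.1% had none at S2. Of all genes at S0 only, 40.8% had a peak at S4, 42.9% at S8 and 16.7% at S8 but not at S4. With lists of equal length, *SPL4*, *SPL5*, *SPL9*, *SPL13A* and *SPL13B* had a peak at S0 only and *SPL3* and *SPL6* had none. At a −log10 q of at least 20, *SPL3*, *SPL4* and *SPL6* had none. With annotated genes of every type, *SPL3* and *SPL4* had none. Without peaks on repeated sequence, *SPL13A* and *SPL13B* had none. Only *SPL5* and *SPL9* had a peak at S0 only under all of these settings. *SPL13A* and *SPL13B* lie in a duplicated stretch of chromosome 5 and count as 1 observation at most. The window at the *SPL13A* summit, all of it coding, occurs without a difference at chr5:20583619-20583719 and at chr5:20616961-20617061 in the other copy, and reads from the copies cannot be told apart there.
SPL13A and SPL13B, S0: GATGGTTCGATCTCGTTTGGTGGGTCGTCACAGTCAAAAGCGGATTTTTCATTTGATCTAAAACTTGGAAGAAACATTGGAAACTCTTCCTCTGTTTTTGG

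*FD* encodes the bZIP partner of the florigen FT at the shoot apex. It stood at the 86.4 percentile at S0 and the 47.5 percentile at S2, with fold enrichments of 4.62 and 3.02 and widths of 1675 and 1116 bp. Its relative *FDP* was at 75.9 and 86.4. The *FT* and *TFL1* family itself had no peak at either stage, in 6 of 6 genes. Of the AP2-type repressors of flowering, *AP2* stood at 91.9 and 83.7 and *TOE2* at 37.5 and 42.3, and *TOE1* had a peak at S0 (44.5) and S4 (53.8) but none at S2. The difference at *TOE2*, 4.79 points, was 26.4 with lists of equal length. Of the 12 floral organ identity genes, only *SEP4* had a peak at both, at 49.8 and 47.5, and *AGL6* had a weak peak at S0 only, at 18.6. The B and C class genes *AP3*, *PI* and *AG* had no peak at S0 or S2.

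**Figure D4:**
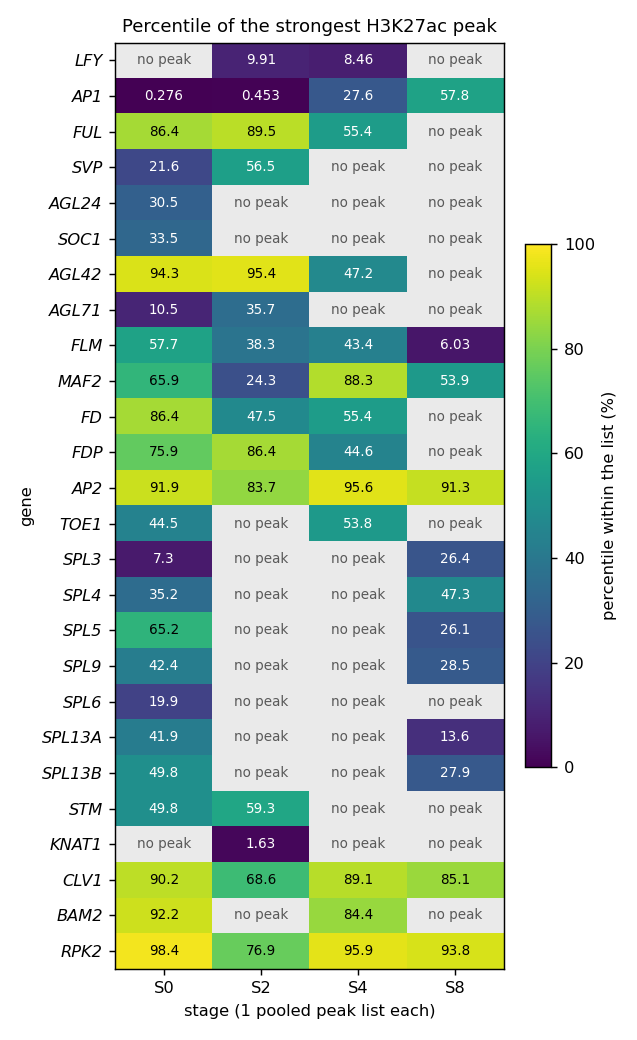
Percentile of the strongest H3K27ac peak of 26 flowering and meristem genes (rows) in the pooled peak list of each stage (columns), by colour and as a number, with grey where no peak was called. The *SPL* rows have values at S0 and, except for *SPL6*, at S8 but none at S2 or S4, and *LFY* has values at S2 and S4 only.

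Meristem genes of the KNOX class largely kept their peaks. *STM*, needed to maintain the shoot meristem, stood at 49.8 at S0 and 59.3 at S2, *KNAT6* at 77.6 and 79.3, and *KNAT2* at 74.3 and 62.1. *KNAT1* and *KNAT4* had weak peaks at S2 only, at 1.63 and 2.13. The BELL partner *PNY* was at 94.7 and 93.5. None of the 6 genes of this list with a peak at both stages differed by 20 points, as was the case for 57.5% of all shared genes. For *STM* this depends on the ranking, since its difference of 9.55 points was 20.9 among the shared genes alone and 26.9 with lists of equal length. In the CLAVATA pathway, which restrains the stem cell niche, the receptor gene *CLV1* stood at 90.2 at S0 and 68.6 at S2, and *RPK2* at 98.4 and 76.9. The related *BAM1* was at 96.9 and 97.4. *CLV1* and *RPK2* were back at 89.1 and 95.9 at S4. The difference at *CLV1*, −21.6 points, was −10.7 by −log10 p. *BAM3* and *WOX4* had weak peaks at S0 only, at 8.17 and 9.83, and *WUS* and *CLV3* had no peak.

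A peak at S0 only was called for 2 of the 4 marked genes of organ boundaries, 2 of the 3 of organ initiation and 1 of the 7 of organ polarity (27.3% of all genes). *LSH4* and *LOF1*, expressed at boundaries, had a peak at S0 only, at 32 and 26.6. *LSH3* was near the top of both lists at 99.3 and 98.3, but its peak was 2095 bp wide at S0 and 1020 bp at S2. *ANT*, which promotes organ growth, was at 57.2 and 34.6, and its relatives *AIL5* and *AIL7* had peaks at S0 only, at 35.6 and 6.49. Of the leaf and flower polarity genes, *REV* was at 57.4 and 59.6, *PHB* at 18.9 and 34.6, *KAN2* at 43.1 and 16.7, and *AS1* at 98.4 and 95. The difference at *ANT*, −22.6 points, was −7.83 with lists of equal length, and that at *KAN2*, −26.4 points, was −6.73. *TCP2*, a repressor of organ proliferation, stood at 56.8 and 82.6. Of the growth-regulating factors, *GRF5* stood at 4.62 at S0 and 46.5 at S2 and *GRF4* at 43.4 and 6.63, so these members of a single family differed in opposite directions. With lists of equal length the S0 peak of *GRF5* was absent and the difference at *GRF4*, −36.8 points, was −17.2. *GRF3*, of that family, was at 96.7 and 95.2.

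Hormone genes differed in both directions. The auxin response factors *ARF2* (99.8 and 99.3) and *ARF6* (99.5 and 98.1) ranked near the top at both stages. *MP*, which starts floral organ primordia, was at 71.6 and 84.7, *ETT* at 91.6 and 73.8, and *ARF4* at 69.1 and 43.4. *ARF7* and *ARF8* had peaks at S0 only, at 41.9 and 27.2. The kinase gene *PID*, which directs auxin transporters, was at 73.1 and 93.0, and it stayed at 93.1 at S4 and 92.2 at S8. Of the cytokinin-induced response regulators, *ARR7* and *ARR9* had peaks at S0 only, at 48.1 and 15.3. All 8 genes of gibberellin sensing had a peak at S0, as had 10832 of the 27444 protein-coding genes. Of these 8, 12.5% had it at S0 only, against 27.3% of all genes with a peak. The DELLA repressors *GAI* (98.7 and 99.7) and *RGA* (97.9 and 97.8) were at the top of both lists. The receptor gene *GID1B* was at 56.4 at S0 with no peak at S2 and was at 57.3 at S4, and *GID1C* was at 73.0 and 49.5. The differences at *ARF4* and *GID1C*, −25.6 and −23.6 points, were −14.9 and −14.2 with lists of equal length.

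Among genes for chromatin factors, the largest differences were toward lower percentiles at S2. *CLF*, the main H3K27 methyltransferase of the Polycomb group in the plant shoot, stood at 81.0 at S0 and 27.9 at S2, and *MSI1*, of the same complex, at 29.2 and 3.03. The difference at *CLF*, −53.1 points, was −31 when peaks were given to genes by gene body or 1 kb upstream, and *CLF* had no peak when peaks within 500 bp were joined. At *MSI1* the difference of −26.2 points was −13.9 among the shared genes alone and −4.01 with lists of equal length. *RING1A*, of the other Polycomb complex, had a peak at S2 only, at 66.6, with its summit 942 bp upstream of the TSS, and ranked at 23.3 at S4. It had no peak at S0 or S2 when peaks were given to annotated genes of every type. The window of 101 bp at the S2 summit (minus strand, chr5:17840195-17840295) holds no exon base of *RING1A*.
RING1A, S2: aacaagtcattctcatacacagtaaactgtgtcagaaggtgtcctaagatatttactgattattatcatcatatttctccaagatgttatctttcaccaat
Of the genes with a peak at S0 or S2, 6 of 7 acetyltransferase genes and 6 of 8 deacetylase genes had one at both stages, against 66.6% of all genes. In these lists of 12 and 10 genes, 5 and 2 had no peak at either stage. *GCN5*, the best studied acetyltransferase gene, was at 97.6 and 90.0, *HAG3* at 61.5 and 84.5, and *HAG4* at 63.8 and 19.5. Of the deacetylase genes, *HDA14* stood at 59.1 and 9.44, *HDA6* at 72.1 and 45.8, and *HDA8* at 64.2 and 90.4, and *HDA19* had a peak at S0 (33.9) and S4 (33.0) and none at S2. Among the co-repressor genes, *TPL* was at 75.5 and 64.9 and *TPR2* at 65.2 and 5.67, and *TPR1* had a weak peak at S2 only, at 10.4. By −log10 p the difference at *HAG3*, 23.1 points, was 17.8 and that at *HAG4*, −44.3 points, was −27.5, and with lists of equal length that at *HDA6*, −26.2 points, was −16.6. The remodeler genes *SYD* and *CHR17* had peaks at S0 only, at 2.23 and 22.9, and *BRM* was at 78.5 and 67.1.

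Of the clock genes, *ELF3* of the evening complex stood at 7.70 at S0 and 50.3 at S2, and its partner *LUX* was at 90.8 and 96.5. *TOC1* was at 91.1 and 96.1. *GI* (49.8), *ZTL* (69.0) and *PRR3* (15.3) had peaks at S0 only, and all of them had a peak again at S8. In the cell cycle list, the retinoblastoma homologue *RBR1* stood at 28.1 and 58.5. The D-type cyclin genes *CYCD3;1* (60.2 and 66.8), *CYCD3;2* (99.6 and 96.3) and *CYCD3;3* (91.7 and 83.4) differed by less than 20 points. For *CYCD3;1* this depends on the ranking, since its difference of 6.63 points was 16.9 among the shared genes alone and 20.4 with lists of equal length. The mitotic kinase genes *CDKB1;1* and *CDKB2;1* and the factor gene *E2FA* had weak peaks at S0 only, at 17.1, 7.96 and 12.4. Over all lists, 9 genes (9.57% of the 94) were higher and 16 (17%) lower at S2 by 20 points, both below the 13.3% and 29.2% of all shared genes. By rank among the shared genes alone, all 9 were still higher by 20 points and 10 of the 16 still lower, the others being *ANT*, *KAN2*, *ARF4*, *GID1C*, *MSI1* and *HDA6*.

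The strongest genes at S0 only lay mostly on repeated sequence. Of the 10 with the highest percentile and no overlapping peak at S2, 8 had a summit in a window of 201 bp in which at least 50% of the 32-mers occur elsewhere in the genome. They included *AT1G18010* (97.8) and *AT1G18000* (97.5), neighbouring transporter genes, the ribosomal protein gene *AT1G33120* (96.1) and *SAE1B* (93.7), for activation of the modifier SUMO, which is next to *SPL13B* in the duplicated stretch. Over all genes at S0 only, 3.90% had such a summit (95% Wilson interval 3.28 to 4.64), against 0.469% of the shared genes (0.339 to 0.648) and 0.143% of the genes at S2 only. The share of all peaks on repeated sequence was 2.13% at S0 and 0.534% at S2, with 1.76% and 1.85% at the later stages, so the S2 list stood apart from the other 3. The part of this in the strongest genes at S0 only was not tested beyond leaving such peaks out. Then 3039 genes had a peak at S0 only, 713 at S2 only and 7645 at both.

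Of the 10 strongest genes at S0 only whose summit was under 50% repeated, 4 were kinase genes, and the others were *RPF2*, *RPL21C* for a ribosomal protein, and *AT3G13857*, *AT2G17442*, *AT5G67265* and *AT4G17670*, whose functions are not described here. *PERK9*, a receptor-like kinase gene, stood at the 97.0 percentile at S0, had no peak at S2 and stood at 54.4 at S4. *BIR1*, a receptor kinase that holds back cell death, was at 91.6, *MPK4*, a MAP kinase of defence signalling, at 91.2, and the kinase gene *NCRK* at 89.1. All of *PERK9*, *BIR1*, *MPK4* and *NCRK* had a peak again at S4, at 15.9 for *BIR1*, 7.77 for *MPK4* and 7.6 for *NCRK*. *RPF2*, which processes mitochondrial RNA, was at 88.2 at S0 with no peak at any later stage.

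The strongest genes at S2 only ranked lower in their list than those at S0 only, and none of the 10 lay on repeated sequence. *CLC-D*, a chloride channel gene, led with a percentile of 88.7 from a peak of 220 bp, and had no peak at any other stage. *ESD4*, a SUMO protease gene that delays flowering, stood at 87.8 at S2, and its later percentiles were 15.9 and 32.5. The proteasome subunit gene *PAF2* was at 79.3, the potassium transporter gene *KT1* at 76.4 and the U-box ubiquitin ligase gene *PUB14* at 75.1. *PAF2* and *PUB14* kept a peak at S4 and S8.

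Among shared genes, the 10 largest differences toward S2 reached 92 points. In *AT4G02760* (6.06 to 98.1), *AT3G03170* (3.89 to 95.3), *AT1G13350* (15.7 to 100) and *AT3G18915* (3.89 to 81.4) the S2 peak did not overlap the S0 peak, so a different peak was compared at each stage. The peaks overlapped in the other genes, among them *AT2G26360*, a mitochondrial carrier gene (7.70 to 93.8), *RH1*, an RNA helicase gene (3.89 to 85.9), *MBF1B*, a transcriptional coactivator gene (2.23 to 78.9), and *UBP16*, a deubiquitinase gene (0.812 to 76.5). *MBF1B* stayed high at S4, at 76.2, and *RH1* did not, at 21.0. In the opposite direction, 7 of the 10 largest differences had an S0 summit of which between 25.3% and 100% was repeated, led by *AT2G16586* (99.6 to 0.0116). In *AT4G06744*, *AT2G07981* and *AT4G06479*, which are among these, the strongest peaks of the stages did not overlap. Their S0 summits lay outside the gene, at 60683, −7927 and −12942 bp from the TSS (negative is upstream). *AT2G01021*, near the start of chromosome 2, was at the top of the S0 list and at 11.1 in the S2 list. The largest difference on sequence without repeats was at *LZF1*, a light-regulated zinc finger gene, at 91.9 at S0 and 4.25 at S2, and its later percentiles were 90.0 and 30.4. *AT5G63120* (88.4 to 0.743) and *AT5G54720* (87.9 to 0.325) completed the 10.

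Many of these differences did not last into the later stages, whose lists were not used to choose the genes. Of the 3150 genes at S0 only, 1286 (40.8%, 95% Wilson interval 39.1 to 42.6) had a peak again at S4 and 1352 (42.9%, 41.2 to 44.7) at S8, and 1338 (42.5%) had none at either. Of the 701 genes at S2 only, 49.9% (46.2 to 53.6) had a peak at S4 and 52.5% (48.8 to 56.2) at S8. Of the shared genes, 88.1% had a peak at S4. The intervals are over genes and cover counting error only. Among the genes higher by 20 points at S2, the S0 and S2 medians were 29.8 and 67.5, and the S4 and S8 medians were 53.4 and 53.5. Among those lower by 20 points the S0 and S2 medians were 69.4 and 27, and the later ones 49.5 and 50.7. The medians at S4 and S8 lay between those of S0 and S2 in both groups, and the median over all shared genes was 59.5 at S4. These groups were chosen by their S0 and S2 values, and how much a selection on 2 values moves the values at other stages was not tested.

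Genes at a single stage and shared genes had similar sequence at their summits. The median GC content in 1001 bp was 38.1% for genes at S0 only, 38.3% for genes at S2 only and 39.3% for shared genes at S0. The hexamer GAGAGA or its complement TCTCTC was found in the 201 bp centred on the summit in 30.3% of genes at S0 only (95% Wilson interval 28.7 to 31.9), 35.4% of genes at S2 only (31.9 to 39.0) and 32.2% of shared genes at S0 (31.1 to 33.2), against 31.2% of all S0 peaks and 32.9% of all S2 peaks. The octamer AAACCCTA or its complement TAGGGTTT was found in 9.05%, 6.99% and 9.07% of these genes, with 8.79% over all S0 peaks and 8.65% over all S2 peaks. These matches describe the windows and are not binding sites. Across shared genes, the difference in percentile had a Spearman correlation of 0.0049 with GC content and of −0.035 with gene length.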

How the data were processed

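H3K27ac ChIP-seq libraries of S0 and S2, 2 each, were aligned by the authors with Bowtie 1.1.2 to TAIR10, duplicates were removed with Picard 2.60, and peaks were called with MACS2 2.1.0 on pooled replicates against combined inputs and filtered for reproducibility between replicates. Reads with several places in the genome were kept at 1 of them, up to a limit on the number of places, and reads beyond that limit were left out. Both can raise or remove peaks on repeated sequence. The authors deposited, for every peak, a score, a fold enrichment over input at the summit, and the −log10 of the p-value and of the q-value. The lowest deposited −log10 q was 10.1 at S0 and 10.0 at S2. The offset of the summit was the other column used. Fold enrichments were ranked within a list and not compared as amounts.

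A peak was given to the protein-coding gene with the nearest TSS, at any distance, and the strongest peak per gene was used. The annotation was that of RefSeq for TAIR10.1, whose nuclear chromosomes are those of TAIR10. Exons are those of the transcript with the longest coding sequence. Genes at 20 percentile points or more, or at a single stage, were counted, with no test. The genes named are members of the fixed lists, the 10 strongest genes at each single stage without an overlapping peak, and the 10 largest differences in each direction that had the same direction by −log10 p. The genes at S0 only with little repeated sequence were ranked and named after the repeats were seen. The members, lists and limits were chosen with earlier results of these data known. Gene groups by product name were chosen after seeing the data. Alternatives were other lengths of the list, limits, rankings, gene assignments and overlaps. All 269 listed loci were found in the annotation. Gene assignment, percentiles, overlap and joining were tested on simulated data. The versions were SciPy 1.17.1, pandas 2.3.3 and NumPy 2.4.6 under Python 3.11.15.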

Additional observations from a re-analysis of the deposited data

How the results depend on the processing

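Of 49 recomputed counts over all genes, 38 stayed within 1.5 times the reported count. With lists of equal length, genes at S0 only numbered 1655 and at S2 only 1717 (1576 and 1539 without an overlapping peak, a setting added after seeing the data), and genes lower by 20 points 1371. With a −log10 q of at least 20, 4279 genes were at S0 only, 322 at S2 only and 3467 at both. Ranked among shared genes, 1574 genes were higher by 20 points. A limit of 10 points gave 1701 higher genes, and one of 30 points gave 561 higher and 1421 lower. For genes of the fixed lists, 289 of 637 values under 7 settings moved by more than the binomial interval of the rank, and no difference of 20 points or more changed sign. Leaving out peaks on repeated sequence, added after seeing the data, moved no count by over 1.5 times. No paired analysis was possible because each list pools its replicates, and for the same reason no replicate could be left out. The number of peaks per list, which depth can set, limits the count of genes at a single stage.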

Other observations

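Gene groups formed by product name, chosen after seeing the data and described by counts only, differed in how their peaks stood at S0 and S2. Of 29 genes for NBS-LRR resistance proteins with a peak at S0 or S2, which sense pathogens inside the cell, 17 (58.6%) had it at S0 only and none at S2 only, against 27.3% and 6.08% of all genes. Of the 12 with a peak at both stages, 8 were lower (66.7%) and 1 was higher (8.33%) at S2 by 20 points. Over all shared genes these shares were 29.2% and 13.3%. *RPS2*, which detects a bacterial effector, stood at the 66.2 percentile at S0 and 24.1 at S2, and *RRS1* at 88.6 and 25.8. Of these 29 genes, 3 had an S0 summit on repeated sequence, all 3 at S0 only. Of 86 leucine-rich repeat kinase genes, 16 (18.6%) had a peak at S0 only, a smaller share than the 27.3% of all genes. Of the 65 with a peak at both stages, 26 were lower (40%) and 2 higher (3.08%), against 29.2% and 13.3% of all shared genes, and no S0 summit of this group lay on repeated sequence. Of 13 shared genes for tubulins and their folding factors, 7 were lower (53.8%) and 1 higher (7.69%), against 29.2% and 13.3% of all shared genes. The lower ones included *TUB4* (55.3 and 8.33) and *TUB9* (40.1 and 3.37), and the higher one was *TUB7* (8.79 and 65.7). *TUB2* and *TUB3* were also among the 7, but their S0 summits lie on repeated sequence.

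Other groups differed in other ways. Of 37 genes with proteasome in the product name and a peak at S0 or S2, 7 (18.9%) had it at S2 only and 13 (35.1%) at S0 only, both shares above the 6.08% and 27.3% of all genes. *PAD2*, an alpha subunit gene, stood at 22.4 at S0 and 75.7 at S2, *PAF1* at 63.6 and 95.1, and *PAA2* at 87.9 and 27.2. For photosystem and light-harvesting proteins, 7 of 36 shared genes were higher (19.4%) and 4 lower (11.1%), against 13.3% and 29.2% of all shared genes. The median difference of the group was 0.939 points, against −5.06 over all shared genes. *LHCB3* stood at 42.4 and 81.3 and *PSBQA* at 19.5 and 68.2, whereas *CAB1* stood at 45.7 and 4.14. *PSAD-1* was at 97.4 at S0 with no peak at S2, and its later percentiles were 96.2 and 99.3. Of 282 ribosomal protein genes, 45 (16%) had a peak at S0 only, a smaller share than the 27.3% of all genes, and the median difference of the shared ones was −2.59 points.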
